A study of Sus scrofa with 17 samples.

Results

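In all, 9 genes of the early transcriptional response were examined in longissimus muscle of weaned piglets: the nuclear receptors NR4A1, NR4A2 and NR4A3, the transcription factors EGR1, FOSB, JUNB and JUN, and the early response genes IER2 and DUSP1. They were picked by symbol, with results of these same libraries already known, and all 9 of them were found among the 31908 Ensembl genes of the count table. Their levels under the 3 diets are therefore given as a description. The fit across all genes includes them, and its calls among them are given as counts from which nothing is read. RNA-seq was done on muscle from male Large White × Duroc piglets that were 28 days old at the start, had 5 days to adapt and were fed the diets for 2 weeks, housed one by one and with feed allowances matched between diets. The control diet was based on wheat, maize and soybean meal (n = 6). The UL diet held 7% of the green seaweed Ulva lactuca (n = 6), and the ULU diet held the same seaweed with 0.01% ulvan lyase, an enzyme that degrades the seaweed's cell wall polysaccharide ulvan (n = 5). Each library came from 1 piglet, named here by its number in the labels (controls 21 to 26, UL 27 to 32, ULU 40 to 44).

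Immediate early genes are transcribed within minutes of a stimulus without new protein synthesis, because the factors that switch them on, such as SRF with its cofactors and CREB, are already in the cell and are activated by kinases. Most of their products are transcription factors, and their transcripts are short-lived. In skeletal muscle they respond to contraction, adrenaline, feeding and injury. The NR4A receptors are orphan nuclear receptors that act without a known natural hormone, and in muscle they are known for regulating genes of glucose and fat use.

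The libraries held between 16137365 and 26546810 counted reads. Levels are given as CPM, the reads of a gene relative to the library total after TMM normalization, which scales libraries to a common composition. On this scale 3 reads, taken as the limit of detection, were worth between 0.130 and 0.195 CPM, counting error alone considered. The summed level of 8 skeletal muscle markers was between 132752 and 339407 CPM in every library. The share of counted reads on mitochondrial genes was 14.05 to 15.9% in control, 8.64 to 14.8% in UL and 8.002 to 11.6% in ULU, so control and ULU did not overlap. Whether this share bears on the 9 genes was not tested. In muscle pieces, fewer cells of a type and less RNA per cell cannot be told apart.

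The 9 genes were expressed at very different levels. To compare genes with each other, reads were also expressed per exonic length as TPM, in which each library sums to the same total. DUSP1, a phosphatase that switches off MAP kinases, was the most abundant, with 69.2 ± 25.4 TPM (SD, n = 17), and NR4A1 followed with 43.8 ± 13.5 TPM. DUSP1 was above NR4A1 in 16 of 17 libraries, and NR4A1 was above EGR1 in 17 of 17. EGR1 with 6.74 ± 3.40 TPM and IER2 with 6.46 ± 1.84 TPM could not be ordered, as EGR1 was the higher in 8 of 17 libraries. JUNB followed with 4.10 ± 1.91 TPM, below IER2 in 17 of 17 libraries. NR4A2 had 2.22 ± 0.584 TPM, NR4A3 1.62 ± 1.92 TPM and JUN 1.05 ± 0.420 TPM, and NR4A3 was above JUN in only 7 of 17 libraries. JUN, and to a smaller degree JUNB, share exonic bases with other genes, as given below, so their TPM may be understated. FOSB was the lowest with 0.241 ± 0.200 TPM, and only 2.97% of the tested genes lay below it.

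**Figure D1:**
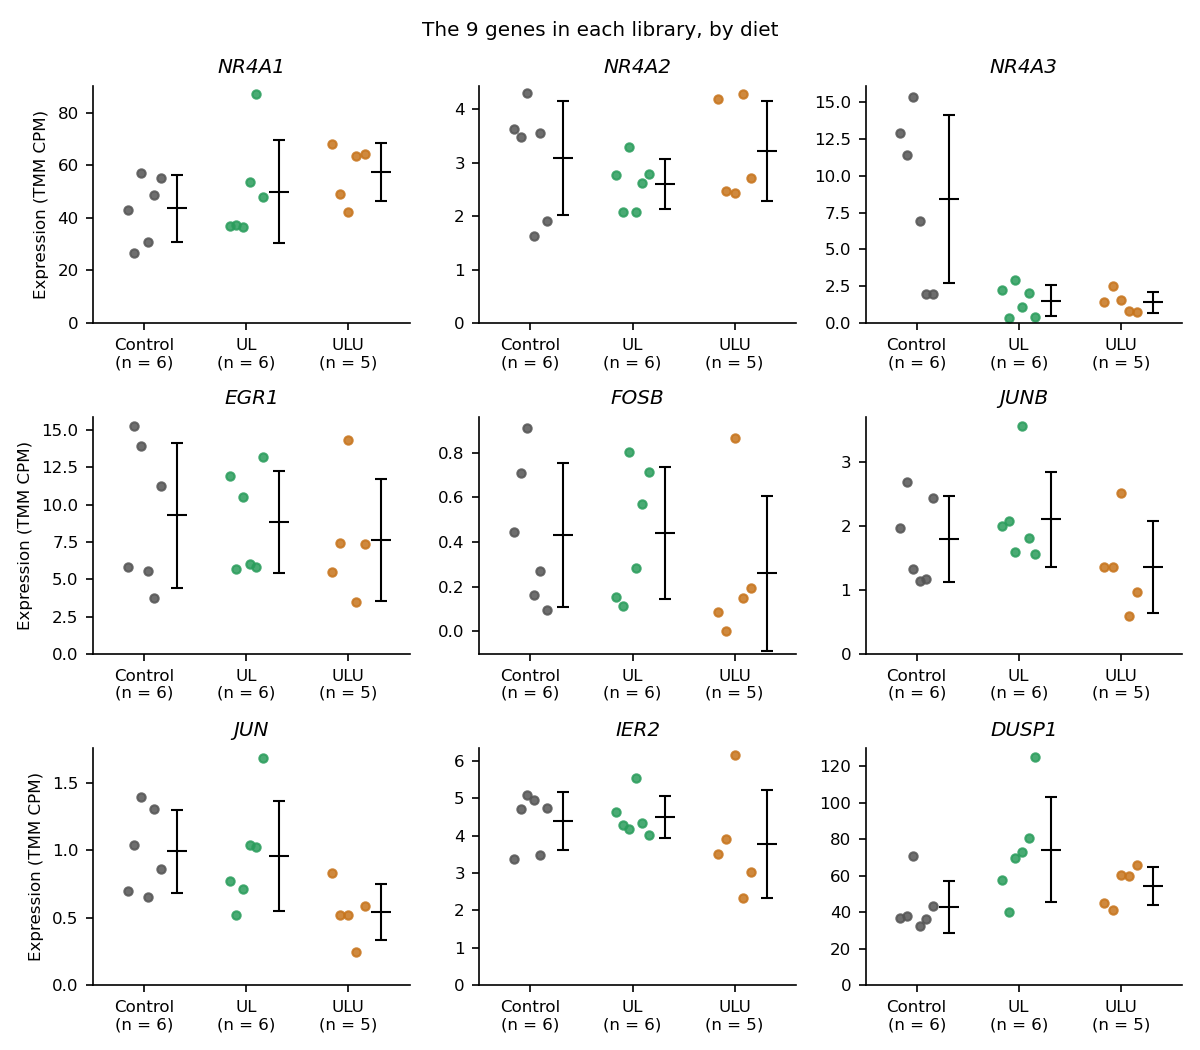
Level of each of the 9 genes in CPM (vertical axes, linear) in every library, by diet (control n = 6, UL n = 6, ULU n = 5). Points are libraries, and bars show the mean and SD. For NR4A3, 4 controls stand above every UL and ULU library. For none of the 9 genes are the ranges of any pair of diets separate.

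NR4A3, also called NOR1, a receptor known for its induction by exercise and adrenergic signals in muscle, was the member that differed most between diets. The gene (ENSSSCG00000005385) lies on the plus strand of chromosome 1, at 241569905 to 241611734 of Sscrofa11.1. In controls it stood at 12.9, 11.4, 15.3, 6.93, 1.94 and 1.96 CPM in piglets 21 to 26, with a mean of 8.42 ± 5.71 CPM (SD, n = 6). In UL the lowest library had 0.347 CPM, the median was 1.57 and the highest 2.94, with a mean of 1.504 ± 1.06 CPM (SD, n = 6). In ULU the 5 libraries stood at 1.40, 2.53, 1.56, 0.838 and 0.730 CPM, with a mean of 1.41 ± 0.720 CPM (SD, n = 5). The controls thus fell into 4 libraries above every seaweed library and 2, piglets 25 and 26, within the seaweed range. The level of NR4A3 in UL was 5.48 times lower than in control, a log2(fold change) of -2.46 (SE 0.55), and in ULU 5.98 times lower, a log2(fold change) of -2.58 (SE 0.60). ULU and UL differed by -0.13 (SE 0.59) on the same scale. Leaving out any 1 library kept this value of NR4A3 between -2.76 and -2.20 for UL, and between -2.88 and -2.32 for ULU. Both comparisons share the 6 control libraries, so they are not independent of each other. NR4A3 had 41 to 253 reads per library in control, 6 to 66 in UL and 15 to 39 in ULU.

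NR4A1, also called Nur77, is the most abundant of the receptors and regulates glycolytic and glucose transport genes in muscle. It is encoded by ENSSSCG00000031321 on chromosome 5, 17385390 to 17408514, plus strand. Its level was 43.6 ± 12.7 CPM in the 6 controls, 49.9 ± 19.6 CPM in the 6 UL piglets and 57.5 ± 11.15 CPM in the 5 ULU piglets (± SD). The controls ran from 26.7 to 57.2 CPM with a median of 45.9, UL from 36.6 to 87.2 with a median of 42.6, and the ULU libraries stood at 68.1, 49.2, 42.3, 63.5 and 64.4 CPM. In ULU, 3 libraries lay above all controls, and the remaining ones were inside the control range. Against control, the log2(fold change) was 0.20 (SE 0.22) for UL and 0.40 (SE 0.23) for ULU. Without UL piglet 31 the value in UL vs control was -0.04.

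NR4A2, also called Nurr1 and best known from dopamine neurons, is encoded by ENSSSCG00000015871 on chromosome 15, 63487698 to 63505244, minus strand. It had 3.09 ± 1.06 CPM in the 6 controls, 2.61 ± 0.465 CPM in the 6 UL piglets and 3.22 ± 0.939 CPM in the 5 ULU piglets (± SD). Controls ran from 1.64 to 4.30 CPM with a median of 3.52, UL from 2.08 to 3.29 with a median of 2.70, and ULU from 2.43 to 4.29. The log2(fold change) was -0.24 (SE 0.25) in UL and 0.06 (SE 0.26) in ULU against control, and every diet's range overlapped the others.

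The proportions of the 3 receptors are given next as a description. NR4A3 made up 8.22 ± 5.48% (SD, n = 6) of the summed TPM of the 3 receptors in control, between 1.57 and 15.1% by library. Its share was 1.43 ± 1.22% in the 6 UL piglets and 1.16 ± 0.740% in the 5 ULU piglets (± SD). NR4A1 made up 86.4 ± 6.98% in control, 93.9 ± 2.67% in UL and 94.3 ± 0.956% in ULU. The summed level of the 3 receptors was 44.5 ± 11.12 TPM in control, 46.4 ± 17.6 TPM in UL and 53.0 ± 9.92 TPM in ULU, with overlapping ranges. NR4A3 was above NR4A2 in TPM in 4 of the 17 libraries, those of control piglets 21 to 24.

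**Figure D2:**
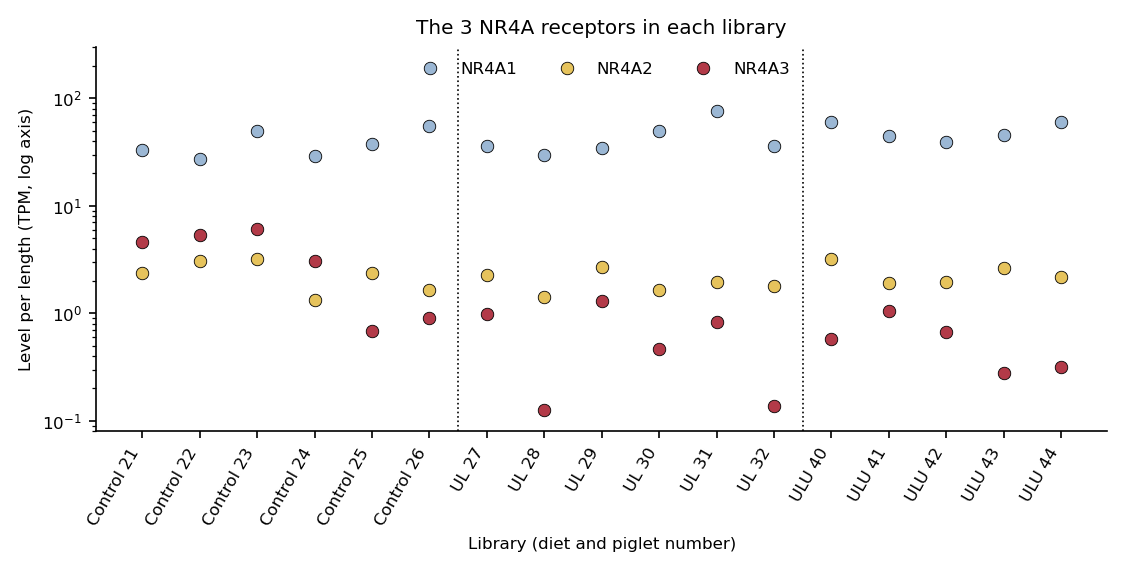
Levels of NR4A1, NR4A2 and NR4A3 in TPM in each library, grouped by diet (control n = 6, UL n = 6, ULU n = 5), on a log axis. NR4A1 is the highest of the 3 receptors in all 17 libraries, and NR4A3 exceeds NR4A2 only in 4 controls.

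EGR1, a zinc finger factor induced by growth factors and mechanical load, is encoded by ENSSSCG00000014336 on chromosome 2, 140441421 to 140445296, plus strand. Its level was 9.28 ± 4.86 CPM in the 6 controls, 8.85 ± 3.40 CPM in the 6 UL piglets and 7.62 ± 4.09 CPM in the 5 ULU piglets (± SD). The controls ran from 3.74 to 15.3 CPM, which covered all UL libraries and all ULU libraries but 1, at 3.50 CPM. The log2(fold change) was -0.07 (SE 0.36) in UL and -0.28 (SE 0.38) in ULU.

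JUN, JUNB and FOSB are subunits of AP-1, a dimer of one FOS and one JUN family protein or of JUN proteins alone, in which JUN is a strong activator and JUNB a weaker one. JUN (ENSSSCG00000031912, chromosome 6, 153685682 to 153687656, plus strand) had 0.992 ± 0.310 CPM in the 6 controls, 0.960 ± 0.408 CPM in the 6 UL piglets and 0.540 ± 0.208 CPM in the 5 ULU piglets (± SD). The ULU libraries stood at 0.830, 0.520, 0.520, 0.246 and 0.584 CPM, against 0.655 to 1.39 CPM in control. In ULU, 4 libraries were below all controls, and ULU piglet 40 lay inside their range. The log2(fold change) was -0.87 (SE 0.37) in ULU vs control and -0.06 (SE 0.34) in UL vs control. These values rest on 5 to 29 reads per library. In addition 91.2% of the exonic bases of JUN are shared with an unnamed gene on the other strand that is listed at 0 reads in all 17 libraries, and if reads in shared bases were left uncounted, as the counter does by default, the level of JUN is understated.

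JUNB (ENSSSCG00000013735, chromosome 2, 66214594 to 66215637, minus strand) had 1.79 ± 0.673 CPM in the 6 controls, 2.10 ± 0.741 CPM in the 6 UL piglets and 1.36 ± 0.719 CPM in the 5 ULU piglets (± SD). UL piglet 30 was the highest at 3.56 CPM. In ULU, 4 libraries were below all UL libraries, and the log2(fold change) was 0.23 (SE 0.33) in UL vs control, -0.39 (SE 0.35) in ULU vs control and -0.63 (SE 0.35) in ULU vs UL. For JUNB 31.7% of the exonic bases are shared with HOOK2 on the other strand.

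FOSB (ENSSSCG00000031616, chromosome 6, 51837719 to 51844531, plus strand) was at the edge of detection, with 0 to 20 reads per library and at most 3 reads in 7 of 17. It had 0.432 ± 0.321 CPM in the 6 controls, 0.440 ± 0.294 CPM in the 6 UL piglets and 0.259 ± 0.347 CPM in the 5 ULU piglets (± SD). In ULU piglet 42 stood at 0.867 CPM while the other 4 libraries were at or below 0.195 CPM, 1 of them at 0 reads. The log2(fold change) of FOSB was 0.04 (SE 0.68) for UL against control and -0.65 (SE 0.74) for ULU against control, and without piglet 42 the latter was -1.88.

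IER2, a small nuclear protein of the early response, lies on chromosome 2 at 65909646 to 65911423, plus strand (ENSSSCG00000013753), 303170 bases from JUNB. It was the least variable member within diets, with 4.39 ± 0.764 CPM in the 6 controls, 4.499 ± 0.552 CPM in the 6 UL piglets and 3.78 ± 1.45 CPM in the 5 ULU piglets (± SD). In ULU the libraries stood at 3.49, 3.90, 6.15, 2.32 and 3.02 CPM. Of these, 4 were below all UL libraries, while piglet 42 was above every control and every UL library. Against control, it differed by 0.04 (SE 0.20) in UL and by -0.22 (SE 0.21) in ULU on the log2 scale.

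DUSP1 (ENSSSCG00000016991, chromosome 16, 51458020 to 51461086, plus strand) had the largest upward difference among the 9 genes. In controls the lowest library had 32.1 CPM, the median was 37.3 and the highest 70.7, with a mean of 42.8 ± 14.1 CPM (SD, n = 6). In UL the lowest had 40.2 CPM, the median was 71.3 and the highest 125, with a mean of 74.3 ± 28.6 CPM (SD, n = 6). The ULU libraries stood at 45.0, 41.1, 60.2, 59.7 and 65.5 CPM, with a mean of 54.3 ± 10.6 CPM (SD, n = 5). Of the controls, 4 were below every UL and every ULU library, and 3 UL libraries were above every control. Control piglet 23 stood apart from the other controls. The level of DUSP1 in UL was 1.73 times that in control, a log2(fold change) of 0.79 (SE 0.23). In ULU the value was 0.34 (SE 0.24), and ULU against UL gave -0.45 (SE 0.24).

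A differentially expressed gene (DEG) was one with an adjusted p-value under 0.05 and an absolute log2(fold change) no smaller than 1, with p-values from edgeR's quasi-likelihood test adjusted by Benjamini-Hochberg over 14203 genes. In UL vs control 0 of the 9 genes passed, beside 0% of all tested genes, although 1541 of the tested genes (10.8%) had an unadjusted p under 0.05, and DESeq2 on the 2 diets called NR4A3 and 0.0704% of all genes. In ULU vs control 1 of the 9 passed, NR4A3, beside 0.415% of all tested genes (0.282% lower and 0.134% higher), and 2678 of the tested genes (18.9%) had an unadjusted p under 0.05. In ULU vs UL 0 of the 9 passed, beside 0.0141% of all tested genes, with 1540 of the tested genes (10.8%) at an unadjusted p under 0.05, and DESeq2 also called 0 of the 9. With DESeq2 on the 2 diets, 0.387% of all tested genes were called in ULU vs control and 0.0282% in ULU vs UL, and with DESeq2 on all libraries the shares were 0.0704% for UL vs control, 0.514% for ULU vs control and 0.0211% for ULU vs UL. Of the 9 genes, both DESeq2 fits called NR4A3 alone in ULU vs control. By adjusted p alone, without a limit on size, edgeR also called only NR4A3 in ULU vs control, beside 2.98% of all tested genes, and 0 of the 9 in ULU vs UL, beside 0.0352%. The ranges of 0 of the 9 genes were separate in any comparison, beside 0.852% of all tested genes in UL vs control, 3.39% in ULU vs control and 1.75% in ULU vs UL. Because the 9 genes were chosen with these contrasts known, nothing is read from the counts. The ULU vs control call of NR4A3 was lost in 5 of the 17 fits that left out 1 library, those without control 22 or 23 or without ULU 40, 43 or 44.

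The direction of the 9 genes was mixed. In UL vs control 4 had a log2(fold change) below 0 and 5 above, beside 50.5% of all tested genes below, with a median of 0.04. In ULU vs control 6 were below and 3 above, beside 53% of all tested genes below, with a median of -0.28. In ULU vs UL 7 were below and 2 above, beside 53% of all tested genes below, with a median of -0.25. The medians over all tested genes were -0.0027, -0.03 and -0.02.

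**Figure D3:**
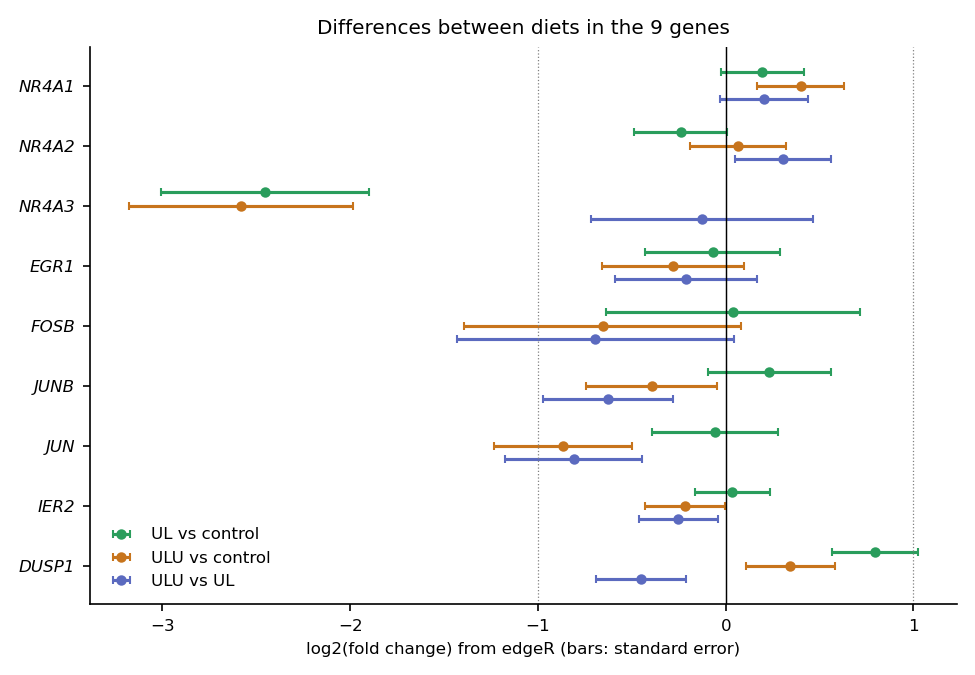
Log2(fold change) of each of the 9 genes for UL and ULU against control and for ULU against UL. Bars show the standard error derived from edgeR's test statistic. NR4A3 lies near -2.5 in both comparisons with control and near 0 in ULU vs UL, and the other 8 genes lie between -0.87 and 0.79.

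Piglets on the same diet varied more in 8 of the 9 genes than in the median tested gene. The SD of log2 CPM within diets was 1.12 for NR4A3, and only 3.13% of the tested genes had a larger one. It was 0.99 for FOSB and 0.71 for EGR1, exceeded by 5.30% and 14.6% of the tested genes. IER2 was the exception at 0.33, against a median of 0.35 over all tested genes. For FOSB, JUN and, in UL and ULU, NR4A3 the low read numbers add counting error to this spread.

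It was examined whether piglets high in one were high in the others, using deviations of log2 CPM from the diet mean so that differences between diets do not enter. Control piglet 23 was above its diet's mean for 8 of the 9 genes and ULU piglet 42 for 7 of the 9. UL piglet 28 was above its diet's mean for 1 of the 9, and control piglet 24 for 2 of the 9. The libraries therefore ranged from a mean standardized deviation of 0.96 in control 23 to -0.90 in UL 28.

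**Figure D4:**
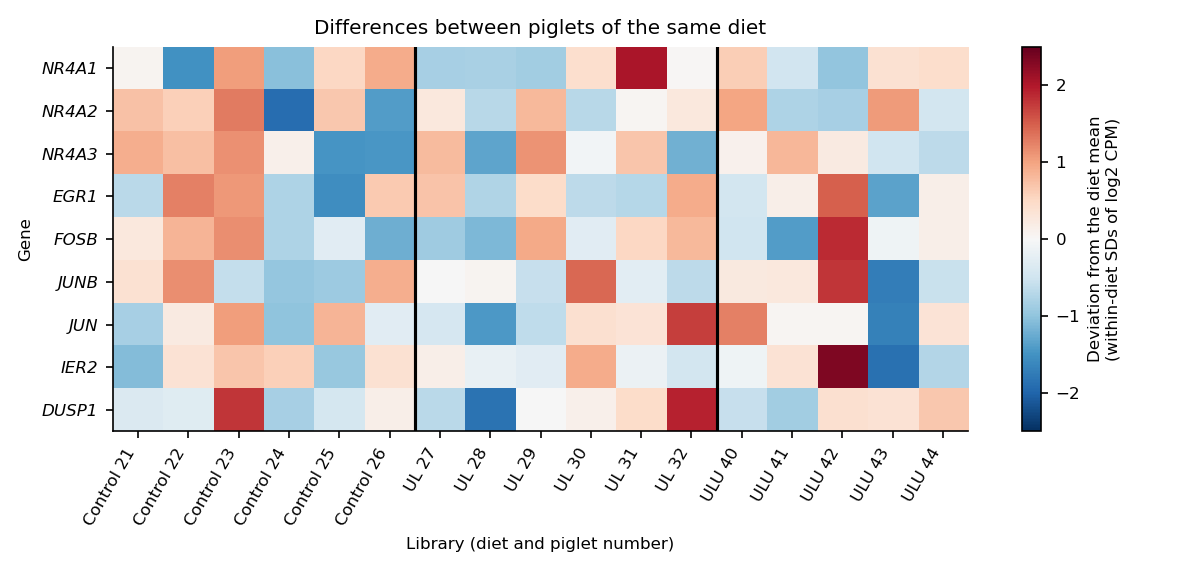
Deviation of log2 CPM from the diet mean, in within-diet SDs (colour), for each of the 9 genes in each of the 17 libraries. Control 23 and ULU 42 lie above the mean of their diet for most genes, and UL 28 and control 24 below it.

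NR4A3 did not follow the others detectably. Of its 8 relations with the other genes over the 17 libraries, 0 passed after Benjamini-Hochberg adjustment (permutation test within diets, two-sided). The highest Pearson's r was 0.340 with FOSB (permutation p = 0.183, adjusted p = 0.584), with a Spearman's rho of 0.395, and r was 0.155 without the 2 controls 25 and 26, which lie farthest from the median in NR4A3. With NR4A1 r was -0.170 (permutation p = 0.567, adjusted p = 0.756), with a rho of -0.230, and r was 0.0803 without the same 2 controls.

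Among all 36 pairs of the 9 genes the median r was 0.245 and 26 were above 0, and 0 passed adjustment over the 36 (smallest adjusted p = 0.127 in the permutation test), while 4 had an unadjusted p under 0.05. For each pair r was also computed without the 2 libraries farthest from the median in the first-named gene. Extremes of the second gene could stay in. FOSB and DUSP1 had r = 0.648 (permutation p = 0.00352, adjusted p = 0.127) and rho = 0.689, and r = 0.684 without the 2 libraries most extreme in FOSB. JUNB and IER2 had the highest r, 0.710 (permutation p = 0.0102, adjusted p = 0.184), with rho = 0.510, and r fell to 0.407 without the 2 libraries most extreme in JUNB. EGR1 and IER2 had r = 0.597 (permutation p = 0.0218, adjusted p = 0.261) and rho = 0.510, and r was 0.398 without the 2 libraries most extreme in EGR1. JUN and DUSP1 had r = 0.561 (permutation p = 0.0314, adjusted p = 0.282) and rho = 0.463, and r was 0.577 without the 2 libraries most extreme in JUN. The lowest r was -0.483, between NR4A2 and IER2 (permutation p = 0.0650, adjusted p = 0.453), with rho = -0.478, and r was -0.496 without the 2 libraries most extreme in NR4A2.

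Genes outside the 9 were ranked by how closely they followed the mean of the 9 over the same deviations. Of 14194 genes, FOS, the founding AP-1 partner of JUN, had the next highest r after EIF2AK3, 0.801, and NAB2, a corepressor that binds EGR1 and is itself an EGR1 target, had r = 0.787. EIF2AK3, the endoplasmic reticulum stress kinase PERK, had the highest, 0.818, and the others of the first 8 were an unnamed gene, IQGAP1, RHOU, PLEKHH2 and PAPLN, with r between 0.769 and 0.785. The 99th percentile of r over all 14194 genes was 0.587. These r values are descriptions over 17 libraries of unequal depth, and the genes were picked for them. Whether depth or handling bears on these r values was not tested. FOS stood at 7.34 ± 3.99 CPM in the 6 controls, 10.7 ± 7.49 CPM in the 6 UL piglets and 4.33 ± 4.82 CPM in the 5 ULU piglets (± SD), with a highest ULU library of 12.9 CPM. For NR4A3 alone the closest genes were TSEN54 with r = 0.834, an unnamed gene with 0.778 and BICD2 with 0.771.

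Other transcription factors of the early response were taken from a list of 19, of which 16 could be tested. This list and the other gene lists below were drawn up with earlier results of these data known. Their counts are therefore given as a description from which nothing is read. In ULU vs control 3 fell and 1 rose by edgeR's quasi-likelihood test (adjusted as above), beside 0.415% of all tested genes. A log2(fold change) below 0 was found for 14 of the 16 (median -0.50), beside 53% of all tested genes. By the same test 7 of the 16 had an unadjusted p under 0.05, beside 18.9%. ATF3, a stress-induced repressor, fell by 3.46 (SE 0.62, adjusted p = 0.00898) on the log2 scale, from 117 ± 76.9 CPM in the 6 controls to 10.7 ± 5.95 CPM in the 5 ULU piglets. The lowest control was at 19.3 CPM and the highest ULU library at 19.4 CPM, so these groups met at their edges. PER1, a circadian repressor that is also induced acutely through CREB, fell by 1.70 (SE 0.28, adjusted p = 0.00502), from 35.4 ± 12.5 to 10.9 ± 5.19 CPM, with no overlap between groups. Ranges were separate for 3 of the 16 in ULU vs control, beside 3.39% of all tested genes.

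CEBPD, a factor induced by glucocorticoids and inflammation, fell by 1.57 (SE 0.41, adjusted p = 0.0458 in edgeR's test), from 6.498 ± 3.25 CPM in the 6 controls to 2.18 ± 0.981 CPM in the 5 ULU piglets. NFIL3, a repressor tied to the clock and to immune cells, rose by 1.09 (SE 0.29, adjusted p = 0.0485 in edgeR's test), from 7.96 ± 2.02 CPM to 16.95 ± 5.53 CPM, with no overlap. ATF3 and PER1 were called in all 17 fits that left out 1 library, while CEBPD and NFIL3 were each called in only 5 of the 17. In UL vs control 0 of the 16 passed in edgeR, and 2 had an unadjusted p under 0.05, beside 10.8% of all tested genes. There ATF3 had a log2(fold change) of -2.17 (SE 0.54, adjusted p = 0.155 in edgeR), and DESeq2 called it. PER1 had -0.84 (SE 0.25, adjusted p = 0.223 in edgeR) in UL vs control. Its highest UL library was at 23.3 CPM and its lowest control at 27.3 CPM. PER1 was the only 1 of the 16 with separate ranges there, beside 0.852% of all tested genes. In ULU vs UL 0 of the 16 passed in edgeR and in DESeq2, and 7 had an unadjusted p under 0.05, beside 10.8% of all tested genes.

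**Figure D5:**
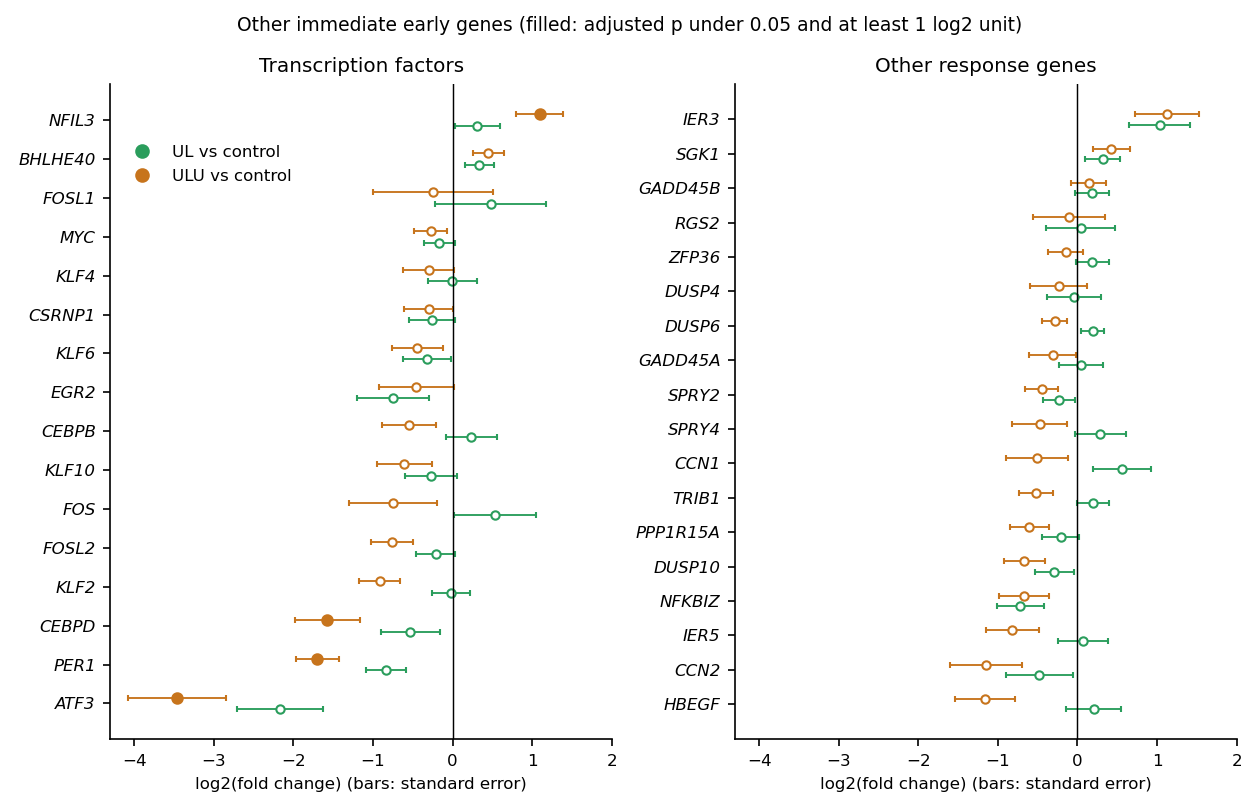
Log2(fold change) against control in UL and in ULU for the 16 other immediate early transcription factors and the 18 other early response genes that were tested, with bars for the standard error. Filled points passed the call rule in edgeR. For ULU, 14 of 16 in the first list and 15 of 18 in the second lie below 0, beside 53% of all tested genes.

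Of 26 other early response genes, which include feedback inhibitors, secreted factors and mRNA-decay proteins, 18 were tested. In ULU vs control 0 passed in edgeR, beside 0.415% of all tested genes, though 15 of the 18 were below 0 (median log2(fold change) -0.46), beside 53% of all tested genes, and 9 had an unadjusted p under 0.05, beside 18.9%. HBEGF, an EGF receptor ligand, had a log2(fold change) of -1.16 (SE 0.38, adjusted p = 0.0943 in edgeR), and DESeq2 on the 2 diets called it. CCN2, a matricellular growth factor also named CTGF, had -1.15 (SE 0.45, adjusted p = 0.166 in edgeR), and IER3, a survival factor, had 1.13 (SE 0.40, adjusted p = 0.124 in edgeR). In UL vs control the median was 0.12 with 6 of 18 below 0, beside 50.5% of all tested genes, and 0 passed in edgeR or DESeq2 (2 with an unadjusted p under 0.05, beside 10.8% of all tested genes). In ULU vs UL the median was -0.37 with 15 of 18 below 0, beside 53% of all tested genes, and 0 passed in edgeR (6 with an unadjusted p under 0.05, beside 10.8% of all tested genes), while DESeq2 called HBEGF.

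Factors and kinases upstream of the early response were measured as 22 tested genes of 24. By the same edgeR test 0 passed in any comparison, beside 0.415% of all tested genes in ULU vs control, 0.0141% in ULU vs UL and 0% in UL vs control, and DESeq2 called 0 as well. An unadjusted p under 0.05 was found for 8 of the 22 in ULU vs control, beside 18.9% of all tested genes. It was found for 3 in ULU vs UL and for 4 in UL vs control, beside 10.8% in each. For ULU vs control the median log2(fold change) was 0.04, with 11 genes on either side of 0. PRKACA, the catalytic subunit of protein kinase A, stood at 24.9 ± 5.09 CPM in the 6 controls, 38.2 ± 5.89 CPM in the 6 UL piglets and 49.2 ± 6.86 CPM in the 5 ULU piglets (± SD). The ULU vs control log2(fold change) of PRKACA, 0.98 (SE 0.14, adjusted p = 0.00181 in edgeR), missed only the limit on size, and the groups did not overlap. CAMK2A, a calcium-activated kinase, had 0.66 (SE 0.14, adjusted p = 0.0177 in edgeR), with 140 ± 24.2 CPM in control and 222 ± 51.1 CPM in ULU, again without overlap. Ranges were separate for 4 of the 22 in ULU vs control, beside 3.39% of all tested genes. The kinase RPS6KA1, which acts below ERK, had -0.68 (SE 0.48, adjusted p = 0.481 in edgeR).

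Metabolic genes that the NR4A receptors are known to regulate or pair with in muscle were all measured, 15 of 15. In edgeR 0 passed in any comparison, beside the same shares of all tested genes. An unadjusted p under 0.05 was found for 8 of the 15 in ULU vs control, beside 18.9% of all tested genes, and for 7 in ULU vs UL and 0 in UL vs control, beside 10.8% in each. Of the 15, 12 lay above 0 in ULU vs control, with a median log2(fold change) of 0.44, beside 6676 of all 14203 tested genes. In UL vs control 9 lay above 0, with a median of 0.04, beside 7030 of all tested genes. RXRG, a retinoid receptor that pairs with NR4A1 and NR4A2, stood at 34.1 ± 21.7 CPM in the 6 controls, 34.2 ± 9.32 CPM in the 6 UL piglets and 71.7 ± 25.9 CPM in the 5 ULU piglets (± SD). Between ULU and control it had a log2(fold change) of 1.07 (SE 0.33, adjusted p = 0.0823 in edgeR), and DESeq2 on all libraries called it. DESeq2 on the 2 diets called RXRG in ULU vs UL. UCP3, a mitochondrial carrier of muscle, had 0.88 (SE 0.35, adjusted p = 0.179 in edgeR). PYGM, muscle glycogen phosphorylase, had 0.76 (SE 0.17, adjusted p = 0.0228 in edgeR), short of the limit on size.

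Of the markers of muscle and of 7 other cell types found in the count table, 0 were called in any comparison. None of those found was at 0 reads in all libraries. MYH1, MYH4, VWF and HBA1 were listed as markers but not found there by symbol. Of all tested genes, 0% were called in UL vs control, 0.415% in ULU vs control and 0.0141% in ULU vs UL. With shares this low, the absence of calls among the markers says nothing about cell composition. Of all tested genes, 53% were below 0 in ULU vs control and 50.5% in UL vs control. The 8 leukocyte markers were all below 0 in ULU vs control, and 6 of the 8 in UL vs control. Their summed level was 46.1 to 192 CPM in control (median 115), 63.7 to 138 CPM in UL (median 75.97) and 27.5 to 188 CPM in ULU (median 43.5). Of the adipocyte markers, 4 were tested, and all 4 were below 0 against control in UL and also in ULU. Sums were taken over all 5 listed adipocyte markers. They were 75.9 to 580.1 CPM (median 128) in control, 54.98 to 179 CPM (median 98.8) in UL and 25.2 to 143 CPM (median 67.7) in ULU. The 6 fibroblast markers were all below 0 in ULU vs control and 4 of them in UL vs control, with median sums of 6668 CPM in control, 5381 CPM in UL and 5106 CPM in ULU. All 8 tested skeletal muscle markers were above 0 against control in both seaweed diets, with median sums of 178657, 212740 and 248514 CPM. Endothelial markers had median sums of 148, 151 and 138 CPM in the same order, smooth muscle and pericyte markers 372, 352 and 318 CPM, satellite cell markers 117, 99.8 and 90.5 CPM, and red blood cell markers 44.1, 66.3 and 60.8 CPM. In ULU vs control 4 of 6 endothelial, 4 of 5 smooth muscle and pericyte, 3 of 5 satellite cell and 1 of 3 red blood cell markers were below 0. In UL vs control the numbers were 1, 4, 3 and 0. In every list the ranges of the 3 diets overlapped. The part of these cells in the levels of the 9 genes was not tested.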

How the data were processed

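Muscle RNA of 17 piglets (6 control, 6 UL, 5 ULU; the methods name 6 ULU animals, and the sixth was not analysed here) was sequenced as single reads of 75 nt. Per the labels and the file header, the authors trimmed reads with fastp, aligned them to Sscrofa11.1 with HISAT2 and counted them on Ensembl release 104 genes with featureCounts, and the deposited values are raw counts per gene. A further deposited column with the authors' mean of the counts over libraries served only as a check. The file header names no option for strand or for reads that overlap several genes, and by the default such reads are not counted. Of 31908 genes, 15032 had a symbol. Counts were tested with edgeR 4.0.16 (R 4.3.3; TMM, filterByExpr, quasi-likelihood test, 1 fit of all libraries, Benjamini-Hochberg over 14203 genes, adjusted p under 0.05 and absolute log2(fold change) of at least 1), with DESeq2 1.42.0 as an alternative, and the test was checked on simulated data. Each SE was derived from edgeR's test, as the absolute log2(fold change) over the square root of the F statistic. A prior count of 2 was used for log2 CPM. Relations used 100000 permutations within diets, and the 28 pairs without NR4A3 were tested after their r had been seen. The 9 genes and all lists were chosen with earlier results of these data known. Beyond the 9, the text names each listed gene called in a comparison, the 3 of each list with the largest absolute log2(fold change) in ULU vs control, and the genes most like the 9 or NR4A3 (first 8 and first 3). Genes named outside this rule were chosen after their values were seen: HOOK2, which shares bases with JUNB, and, in the closing section, MRTFA, PPP3CA, PFKM and NFKBIZ. The cell type markers named as not found had no values. The p-values set each difference or relation against the spread between piglets. Left out were the proteomics values. Sequences were not used here.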

Additional observations from a re-analysis of the deposited data

Results flagged for a closer look

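Of 27 sets of a gene and a diet examined for a library far from the rest by Dixon's criterion on linear CPM, 4 had one. The criterion gives about 1 in 20 by chance only for normally distributed values, which linear CPM need not be. In each of the 4 the library was the highest of its set, and no excess is read from the count. NR4A1 in UL piglet 31 stood at 87.2 CPM, and the next UL library at 53.7 CPM. FOSB in ULU piglet 42 stood at 0.867 CPM against a next value of 0.195 CPM. JUNB in UL piglet 30 stood at 3.56 CPM against 2.08 CPM. DUSP1 in control piglet 23 stood at 70.7 CPM against 43.1 CPM. The 4 libraries are different piglets.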

How the results depend on the processing

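The count of the 9 genes called in UL vs control was 0 in edgeR and 1 with DESeq2 on the 2 diets (NR4A3), and in ULU vs control it was 1, or 0 to 1 with any single library left out. For the other transcription factors the count in UL vs control was 1 with DESeq2 on the 2 diets or on all libraries (ATF3), against 0, and in ULU vs control 4, with 2 to 4 with any single library left out. It was 2 without control 22, 23, 25 or 26, UL 28, or ULU 40, 41 or 43. For the early response genes the count in ULU vs control was 0, with 1 for DESeq2 on the 2 diets (HBEGF) and 0 to 1 with any single library left out (NFKBIZ without ULU 42). In ULU vs UL it was 1 for either DESeq2 fit (HBEGF). For the upstream list in ULU vs control it was 0, or 4 by adjusted p alone (PRKACA, CAMK2A, MRTFA and PPP3CA), and 0 to 1 with any single library left out (PRKACA without control 25 or ULU 44). For the metabolic list it was 0, or 1 with DESeq2 on all libraries (RXRG), 2 by adjusted p alone (PYGM and PFKM) and 0 to 1 with any single library left out (RXRG without control 21 or 25). In ULU vs UL it was 1 with DESeq2 on the 2 diets (RXRG). The cause of these shifts was not tested. Of the relations of NR4A3, 0 passed under every alternative run. FOSB without ULU 42 had a log2(fold change) of -1.88 in ULU vs control and -1.92 in ULU vs UL. No paired analysis was run, because the labels give no link between piglets of different diets. FOSB, at 0 to 20 reads per library, is limited by depth. JUN had 5 to 29 reads per library. Whether depth or uncounted reads in its shared bases keep this number low was not tested.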

Other observations

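Within the upstream list, genes past the adjusted p of edgeR's quasi-likelihood test but short of the limit on size in ULU vs control were, besides PRKACA and CAMK2A, the SRF cofactor MRTFA with a log2(fold change) of 0.61 (SE 0.14, adjusted p = 0.0239) and PPP3CA, the catalytic subunit of the phosphatase calcineurin, with 0.51 (SE 0.11, adjusted p = 0.0193). In the metabolic list PFKM, muscle phosphofructokinase, had 0.75 (SE 0.18, adjusted p = 0.0353 in edgeR). These 3 genes were picked after their values were seen.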
